A study of Mus musculus with 18 samples.

Results

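*Egr1*, *Egr2*, *Egr3*, *Egr4*, *Nr4a1*, *Nr4a2*, *Nr4a3* and *Npas4* are 8 of the 15329 genes measured in hippocampi of mice with and without the *Ccny* knockout (WT and KO), and were taken by name as the Egr and Nr4a families of activity-induced transcription factors together with *Npas4*. *Ccny* encodes cyclin Y, a cyclin found at postsynaptic sites. Hippocampal mRNA of 18 mice was sequenced, with a library for each mouse and 6 groups of 3. All mice were C57BL/6J and 8 to 10 weeks old, and the methods of the maze task name males. WT_Basal and KO_Basal mice had no maze training. WT_OL and KO_OL mice had been through original learning in the Morris water maze, where a mouse learns the place of a hidden platform from cues around the pool. WT_RL and KO_RL mice had been through original learning and then reversal learning, with the platform moved to the opposite quadrant. *Ccny* KO mice carry the knockout in every group named KO, and how the allele was made and the time between the last swim and dissection are not given in the sources used here. Where nothing else is said, levels are CPM after TMM normalization (reads of a gene scaled to a library of 1000000), changes are differences of group means of log2(CPM + 1), and adjusted p-values come from limma over all 15329 genes.

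Neurons that fire strongly let calcium in, and kinases such as ERK and the calmodulin-dependent kinases then act on transcription factors already present at the DNA, among them CREB and SRF with its Elk partners. Within minutes these switch on immediate early genes without the need for new protein. EGR proteins are zinc-finger factors that bind a GC-rich site, and EGR1 (also called Zif268) has long been used to map activated hippocampal neurons and is needed for late phases of long-term potentiation. NR4A proteins are orphan nuclear receptors that act as monomers or, for NR4A1 and NR4A2, as dimers with RXR, and they take part in memory consolidation. NPAS4 is a basic helix-loop-helix PAS factor that pairs with ARNT2, is induced by calcium entry in neurons and regulates inhibitory synapses on excitatory cells.

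Since the genes respond to shared signalling, their promoters were read for the sites of the factors named above. RefSeq windows of 300 bases on GRCm38.p6, from 250 before to 50 after a transcription start, were at hand for 6 of the 8 genes. The windows of the 5 genes whose level passed the test in at least 1 comparison of trained with untrained mice are printed 5′ to 3′, with every match to a motif in capitals. *Egr2* has 5 windows, of which 3 overlap over most of their length, and the most upstream of these 3 is shown. The shown windows of *Egr2*, *Nr4a1* and *Npas4* lie inside the spans of their genes, each at the start of a RefSeq transcript.
*Egr2*, chr10:67537619-67537918, plus strand: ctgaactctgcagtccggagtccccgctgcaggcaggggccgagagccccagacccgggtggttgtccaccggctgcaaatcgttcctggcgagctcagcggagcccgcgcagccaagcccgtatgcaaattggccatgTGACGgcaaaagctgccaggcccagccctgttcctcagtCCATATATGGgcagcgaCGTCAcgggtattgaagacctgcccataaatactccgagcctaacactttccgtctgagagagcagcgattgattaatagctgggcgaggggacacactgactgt
*Egr4*, chr6:85513540-85513839, minus strand: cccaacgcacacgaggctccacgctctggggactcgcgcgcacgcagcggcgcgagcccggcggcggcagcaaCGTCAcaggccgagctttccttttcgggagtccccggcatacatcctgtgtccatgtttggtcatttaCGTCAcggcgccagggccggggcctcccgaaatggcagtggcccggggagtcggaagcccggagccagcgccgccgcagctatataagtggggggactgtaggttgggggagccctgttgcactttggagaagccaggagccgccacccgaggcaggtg
*Nr4a1*, chr15:101266596-101266895, plus strand: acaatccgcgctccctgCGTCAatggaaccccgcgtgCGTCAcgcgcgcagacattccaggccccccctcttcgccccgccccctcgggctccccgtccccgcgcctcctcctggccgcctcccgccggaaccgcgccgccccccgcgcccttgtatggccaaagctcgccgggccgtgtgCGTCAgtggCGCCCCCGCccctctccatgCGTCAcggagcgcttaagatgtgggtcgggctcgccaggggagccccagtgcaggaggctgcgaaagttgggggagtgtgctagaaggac
*Nr4a3*, chr4:48045055-48045354, plus strand: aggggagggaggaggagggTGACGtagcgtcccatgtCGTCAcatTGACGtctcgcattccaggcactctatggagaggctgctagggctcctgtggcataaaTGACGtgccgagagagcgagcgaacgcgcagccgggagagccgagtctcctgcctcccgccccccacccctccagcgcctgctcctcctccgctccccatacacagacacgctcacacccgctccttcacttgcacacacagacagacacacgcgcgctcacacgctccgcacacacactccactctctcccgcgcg
*Npas4*, chr19:4989922-4990221, minus strand: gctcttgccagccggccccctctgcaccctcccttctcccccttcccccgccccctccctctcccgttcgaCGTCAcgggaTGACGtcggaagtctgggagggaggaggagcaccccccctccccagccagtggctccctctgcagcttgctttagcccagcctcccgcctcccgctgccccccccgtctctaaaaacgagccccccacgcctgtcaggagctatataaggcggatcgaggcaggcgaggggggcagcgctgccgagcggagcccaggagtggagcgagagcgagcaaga

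The short CREB site TGACG, read on both strands as TGACG or CGTCA, occurred at least 2 times in a window of each of the 6 genes, *Nr4a2* included. Of 27025 genes, each read only in its first listed RefSeq window, 5.20% had at least 2 copies. The first listed window of *Egr2* had none, so its 5 windows and the shares over all genes are not like for like. At least 1 copy was present in 21.0% of all genes. *Nr4a1*, *Nr4a2* and *Nr4a3* had 4 copies each, and *Egr4* and *Npas4* had 2. The shown window of *Egr2* had copies at positions -111 and -55 relative to its start. The full palindromic site TGACGTCA, which contains the short site, was in none of the windows of the 6 genes and in 1.88% of all genes. A CArG box, the site bound by SRF, stood at position -72 of the shown window of *Egr2* as CCATATATGG. In the first listed window 1.57% of genes held a CArG box, and *Egr2* held none there. The EGR site GCGNGGGCG was found in *Nr4a1* at position -60, as its reverse complement CGCCCCCGC, and in *Nr4a2* at position -74, against 5.55% of genes. The NR4A monomer site AAAGGTCA was in no window of the 6 genes (1.46% of all genes). The exact letters TATAAA were in 1, that of *Nr4a2*, as the reverse complement TTTATA at position -164 (14.2% of all genes). The windows of *Egr4* and *Npas4* hold the letters TATATAAG, which this search did not count. These matches describe letters in the windows and are no measure of binding in these mice.

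The 8 genes lie on 8 different chromosomes in GRCm38 (GENCODE M21), and no exon of any of them overlaps another gene. *Egr1* (chromosome 18, 34859823 to 34864984) shares its chromosome with *Ccny*. *Egr2* lies on chromosome 10 (67535475 to 67542188), *Egr3* on chromosome 14 (70077203 to 70082614) and *Egr4* on chromosome 6 (85511121 to 85513589). *Nr4a1* lies on chromosome 15 (101254269 to 101274795), *Nr4a2* on chromosome 2 (57106830 to 57124003), *Nr4a3* on chromosome 4 (48045153 to 48086447) and *Npas4* on chromosome 19 (4984355 to 4990316).

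*Ccny* itself was lower in every KO mouse than in every WT mouse at each training state, but its reads did not disappear. It stood at 158, 150 and 158 CPM in WT_Basal and at 95.8, 90.5 and 89.6 CPM in KO_Basal, so that the log2 change was -0.75 (SE 0.11 and limma adjusted p = 0.0121). WT_OL and WT_RL mice lay between 107 and 150 CPM, and KO_OL and KO_RL mice between 74.0 and 84.3 CPM. The libraries held 29248557 to 37915576 reads on these genes, and 1 read equals 0.0274 to 0.0333 CPM. All 10 marker genes of dentate granule and CA1 neurons were measured, with sums of 579 to 987 CPM. Some of them differed between trained and untrained KO mice in opposite directions, as given below. The tissue also held choroid plexus in varying amounts. All 10 of its marker genes were measured and none was at 0 in all mice of a group, and their sum lay between 49.5 and 678 CPM in KO_Basal, between 873 and 4418 CPM in WT_Basal, between 1911 and 4717 CPM over WT_OL and KO_OL, between 1352 and 5097 CPM in KO_RL and between 44.7 and 8545 CPM in WT_RL. The library of KO_Basal replicate 1 stood apart by hypothalamic genes, whose 7 measured markers of 8 listed summed to 106 CPM, against at most 12.1 CPM in every other library. Values of the 8 genes that use KO_Basal are therefore also given without this mouse. In whole tissue, fewer cells of a type and less RNA per cell cannot be told apart.

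Per length of transcript the 8 genes differed widely in level in untrained WT mice, from 24.3 CPM per kilobase for *Egr3* and 18.6 for *Egr1* to 1.19 for *Npas4* and 0.42 for *Egr2*. *Nr4a1* stood at 16.4, *Nr4a3* at 14.7, *Nr4a2* at 12.8 and *Egr4* at 5.06 CPM per kilobase in the same mice. The genes with the lowest levels were not those that varied least. The highest group mean of *Egr2* was 6.19 times its lowest, that of *Egr4* 3.07 times, of *Npas4* 2.46 times, of *Egr1* 2.43 times and of *Nr4a1* 2.24 times. *Nr4a3* (1.58 times), *Egr3* (1.37 times) and *Nr4a2* (1.27 times) varied least over the groups.

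**Figure D1:**
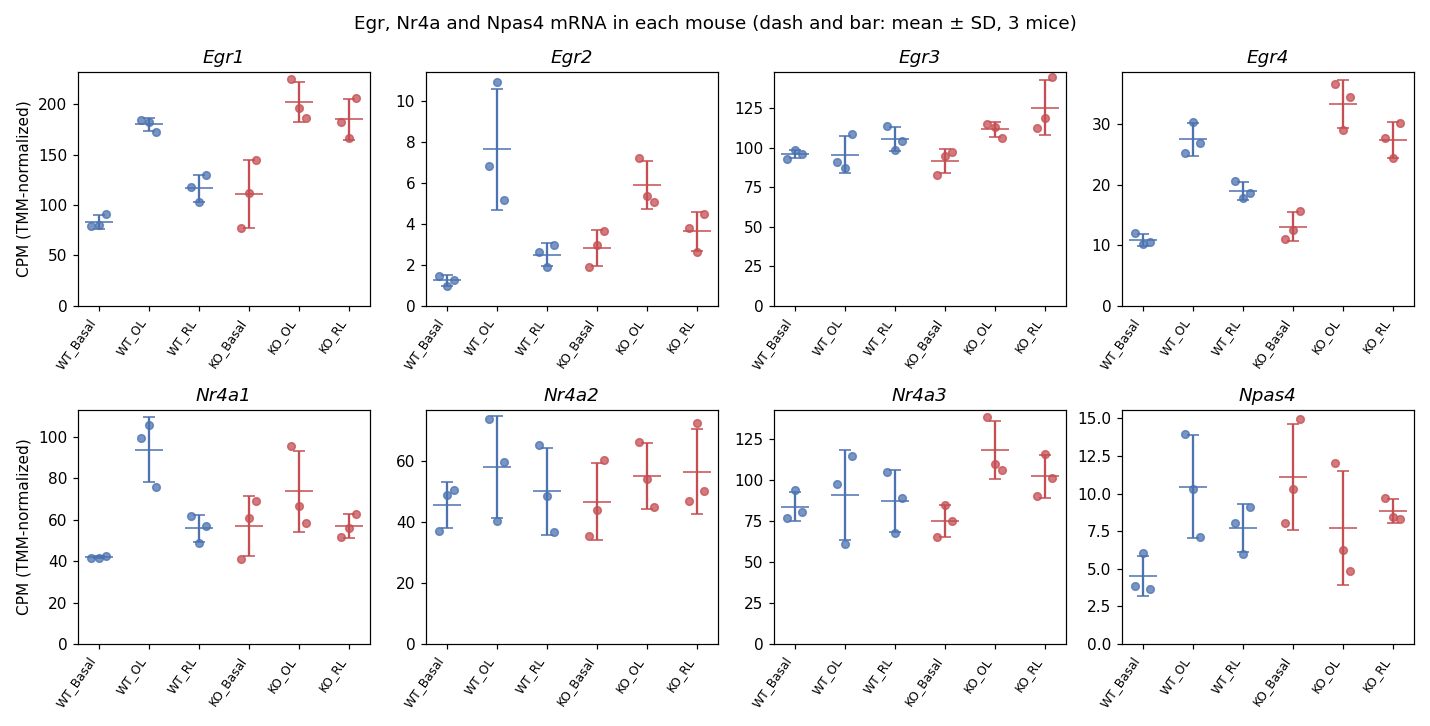
Level of each of the 8 genes in each mouse, in TMM-normalized CPM on an axis from 0, by group (blue WT, red KO; points are mice, the dash and bar give mean ± SD, n = 3). *Egr1*, *Egr2*, *Egr4*, *Nr4a1*, *Nr4a2* and *Npas4* have WT_Basal as their lowest group. *Npas4* reached its highest group mean in KO_Basal. The group means of *Egr3* and *Nr4a2* lay close together, with a wide spread of *Nr4a2* between mice.

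Original learning asks which genes differ between trained and untrained mice of a genotype. In WT mice 5 of the 8 genes rose: *Egr1*, *Egr2*, *Egr4*, *Nr4a1* and *Npas4*, while *Egr3*, *Nr4a2* and *Nr4a3* did not pass the test. Of all genes, 3.88% were called higher in this comparison, and the median log2 change was 1.07 over the 8 genes and 0.00 over all genes. In 5 of the 8 genes every WT_OL mouse lay above every WT_Basal mouse, against 13.1% of all genes, and these were the same 5 genes. Some markers of other cells moved in this comparison too. Of 6 microglial genes *Tmem119* and *Csf1r* were called higher and *P2ry12* lower (-0.52), with sums of 399 to 444 CPM in WT_Basal and 382 to 493 CPM in WT_OL. Of 6 endothelial genes *Flt1* was higher (sums of 297 to 320 and 273 to 328 CPM), and of 6 meningeal genes *Col1a1* was higher (sums of 215 to 328 and 296 to 337 CPM). No gene of these lists was at 0 in all mice of a group, and the part of these cells in the result was not tested.

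*Egr1*, the zinc-finger factor most used as a marker of neuronal activity, stood at 79.0, 79.6 and 91.5 CPM in WT_Basal and at 185, 182 and 173 CPM in WT_OL. The groups were far apart and the mice within each close together. The log2 change was 1.10 (SE 0.16 and limma adjusted p = 0.000955), or 2.16-fold in mean CPM. *Egr2*, also called Krox20 and known for its part in hindbrain patterning and myelination, is the rarest of the 8 genes here. It had 1.47, 0.97 and 1.27 CPM in WT_Basal, from 29 to 44 reads per library, and 6.82, 10.9 and 5.17 CPM in WT_OL, from 168 to 369 reads. The trained mice spread widely but lay all above the untrained ones, and mean CPM rose 6.19-fold, which the log2(CPM + 1) scale gives as 1.90 (SE 0.23 and limma adjusted p = 0.000314) because the added 1 weighs on a gene this low. *Egr4*, which is largely restricted to neurons and lacks the domain through which other EGR factors bind NAB corepressors, stood at 11.9, 10.2 and 10.5 CPM in WT_Basal and at 25.2, 30.3 and 26.8 CPM in WT_OL. No mice overlapped, and the log2 change was 1.26 (SE 0.12 and limma adjusted p = 9.1e-05), 2.53-fold in mean CPM.

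*Egr3*, which acts downstream of neuronal activity and is needed for muscle spindles, behaved otherwise. It stood at 93.1, 98.4 and 96.1 CPM in WT_Basal and at 90.8, 87.3 and 109 CPM in WT_OL. The groups overlapped, the log2 change was -0.01, and its 95% interval ran from -0.22 to 0.20, which leaves out a rise of the size of *Egr1*, *Egr2* or *Egr4*.

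Among the nuclear receptors, *Nr4a1* (Nur77) stood at 41.5, 41.7 and 42.6 CPM in WT_Basal, the tightest group of any of the 8 genes, and at 99.5, 106 and 76.0 CPM in WT_OL. No mice overlapped, and the log2 change was 1.13 (SE 0.18 and limma adjusted p = 0.00177), 2.24-fold in mean CPM. *Nr4a2* (Nurr1), also known as a factor of dopamine neurons, stood at 37.0, 49.0 and 50.7 CPM in WT_Basal and at 73.9, 40.4 and 59.6 CPM in WT_OL. Its groups overlapped, with a log2 change of 0.31 and a 95% interval from -0.22 to 0.84 (limma adjusted p = 0.463), too wide to tell no change from a rise of up to 0.84. *Nr4a3* (Nor1) stood at 77.1, 94.3 and 80.6 CPM in WT_Basal and at 97.7, 61.0 and 115 CPM in WT_OL. Here the WT_OL mice lay on both sides of the untrained ones, and the log2 change was 0.07 (95% interval -0.35 to 0.49, limma adjusted p = 0.857).

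*Npas4* stood at 3.86, 6.03 and 3.66 CPM in WT_Basal and at 14.0, 10.3 and 7.11 CPM in WT_OL. The mice did not overlap, but the lowest trained mouse lay close to the highest untrained one. The log2 change was 1.04 (SE 0.28 and limma adjusted p = 0.0291). This call was the least firm of the 5, and was lost with an adjusted p of 0.107 without WT_OL replicate 1, 0.0739 without WT_OL replicate 2, 0.105 without WT_Basal replicate 1 and 0.119 without WT_Basal replicate 3.

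In *Ccny* KO mice 5 of the 8 genes also rose after original learning, but the members were in part others: *Egr1*, *Egr2*, *Egr3*, *Egr4* and *Nr4a3*. Of all genes 11.2% were called higher in this comparison, a larger share than in WT mice. The median log2 change was 0.51 over the 8 genes and -0.01 over all genes. Mice of KO_OL lay above all mice of KO_Basal for 5 genes, the same 5, against 24.2% of all genes. Whether a gene rose in 1 genotype and not in the other does not by itself show a difference between the genotypes, which takes a test of its own.

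*Egr4* stood at 11.03, 12.5 and 15.7 CPM in KO_Basal and at 36.5, 28.9 and 34.5 CPM in KO_OL, so that the log2 change was 1.29 (SE 0.12 and limma adjusted p = 1.2e-05). *Egr1* stood at 77.3, 112 and 145 CPM in KO_Basal and at 225, 196 and 186 CPM in KO_OL, so that the log2 change was 0.90 (SE 0.16 and limma adjusted p = 0.00102). Both genes were clear of overlap, and *Egr1* spread more among the untrained KO mice than among the trained ones. *Egr2* stood at 1.91, 2.98 and 3.64 CPM in KO_Basal and at 7.24, 5.37 and 5.08 CPM in KO_OL, so that the log2 change was 0.86 (SE 0.23 and limma adjusted p = 0.0134), 2.07-fold in mean CPM. *Egr3* stood at 82.6, 94.8 and 97.2 CPM in KO_Basal and at 115, 113 and 106 CPM in KO_OL. Its log2 change of 0.29 (SE 0.10 and limma adjusted p = 0.0467) was small, and it passed the threshold only narrowly.

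Of the nuclear receptors, *Nr4a3* stood at 65.2, 85.0 and 74.9 CPM in KO_Basal and at 139, 110 and 107 CPM in KO_OL, so that the log2 change was 0.65 (SE 0.20 and limma adjusted p = 0.0260). *Nr4a1* stood at 41.2, 60.9 and 69.1 CPM in KO_Basal and at 95.8, 66.9 and 58.4 CPM in KO_OL. Its groups overlapped and its log2 change of 0.36 did not pass the test (limma adjusted p = 0.164). *Nr4a2* stood at 35.6, 44.0 and 60.5 CPM in KO_Basal and at 66.3, 54.3 and 44.8 CPM in KO_OL, again with overlap and with a log2 change of 0.25 (limma adjusted p = 0.499). *Npas4* stood at 8.04, 10.3 and 14.97 CPM in KO_Basal and at 12.1, 6.24 and 4.88 CPM in KO_OL, so that the log2 change was -0.52 (95% interval -1.11 to 0.08, limma adjusted p = 0.194). It was the only 1 of the 8 whose group mean was lower in KO_OL than in KO_Basal.

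The KO_OL calls depended on single mice more than those in WT. KO_Basal replicate 1, the library with hypothalamic genes, had the lowest level of its group for 8 of the 8 genes, and KO_OL replicate 1 had the highest of its group for 8 of the 8. Without KO_Basal replicate 1 the calls fell from 5 to 2, with *Egr1* at 0.66 (limma adjusted p = 0.00358) and *Egr4* at 1.19 (limma adjusted p = 0.000124) still past the threshold, and with *Egr2* at 0.67 (limma adjusted p = 0.0762), *Egr3* at 0.22 (limma adjusted p = 0.193) and *Nr4a3* at 0.56 (limma adjusted p = 0.106) no longer past it. The other values without this mouse were 0.15 for *Nr4a1*, 0.08 for *Nr4a2* and -0.71 for *Npas4*, none past the threshold. There were 3 calls without KO_Basal replicate 3, and 3 without KO_OL replicate 1, of which 1 was a fall of *Npas4* (-0.85, limma adjusted p = 0.0405). Choroid plexus genes rose between the same groups, with 10 of 10 called higher in KO_OL against KO_Basal and 8 of 10 in KO_RL. The shares of all genes called higher were 11.2% and 11.6%. Of 6 endothelial genes 3 and of 6 microglial genes 2 were called lower in KO_OL. Of 10 markers of hippocampal neurons, *Fibcd1* (0.82) and *Lefty1* (0.45) were called higher in KO_OL, and *Calb1* (-0.49) and *Tdo2* (-0.55) lower. All but *Lefty1* were called in the same direction in KO_RL. No share of all genes called lower by limma is given here. Limma voom called 3491 genes in KO_OL against KO_Basal. An unadjusted p under 0.05 from limma was reached there by 36.6% of all genes, which is not like for like with adjusted calls. The part of these cells in the result was not tested.

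**Figure D2:**
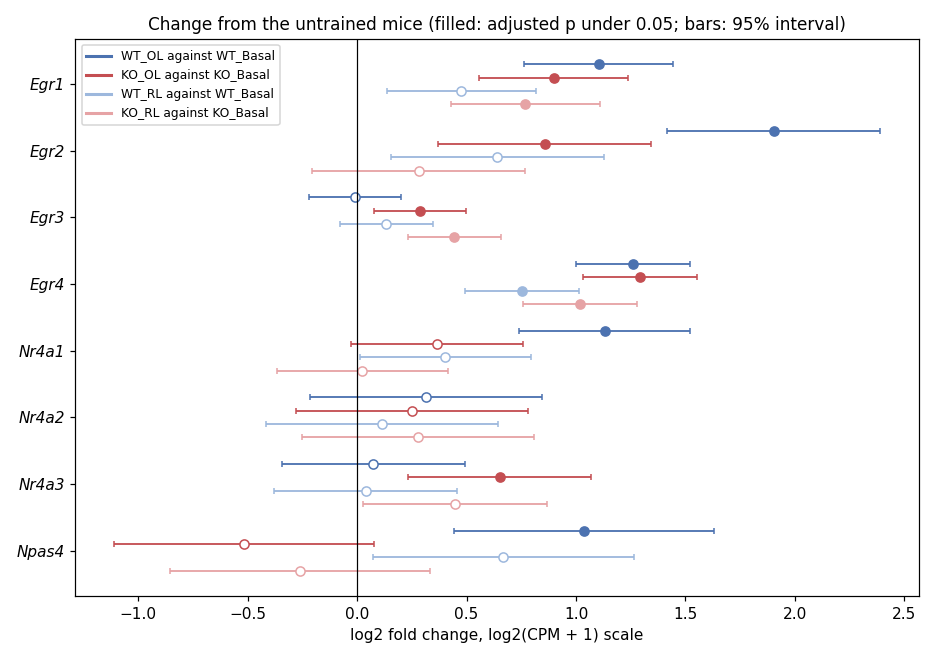
Log2 fold change of each gene between trained and untrained mice of a genotype on the log2(CPM + 1) scale, with 95% intervals from limma (filled points have an adjusted p under 0.05, open points do not). *Egr4* is filled in all 4 comparisons, and the WT_OL and KO_OL points lie apart for *Egr2*, *Nr4a1* and *Npas4*.

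After reversal learning the mean levels in WT mice lay between those of untrained mice and those taken after original learning for every gene of the 8 but *Egr3*. Only *Egr4* was called higher in WT_RL than in WT_Basal, against 8.28% of all genes. It stood at 20.6, 17.8 and 18.5 CPM in WT_RL, above all 3 untrained mice and below all 3 WT_OL mice, with a log2 change of 0.75 over WT_Basal (SE 0.12 and limma adjusted p = 0.00108). WT_RL mice lay above every WT_Basal mouse for 5 genes, *Egr1*, *Egr2*, *Egr3*, *Egr4* and *Nr4a1*, against 17.6% of all genes. *Egr1* stood at 117, 103 and 130 CPM, so that the log2 change was 0.47 that narrowly missed the threshold (limma adjusted p = 0.0555). *Egr2* stood at 2.63, 1.89 and 2.97 CPM, so that the log2 change was 0.64 (limma adjusted p = 0.0693). *Nr4a1* stood at 62.0, 49.0 and 57.0 CPM, so that the log2 change was 0.40 (limma adjusted p = 0.152). These 3 values were thus separated by mouse but not past the threshold over all genes. WT_OL and WT_RL are both set against the same 3 WT_Basal mice, as is KO_Basal, and KO_OL and KO_RL share the KO_Basal mice.

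Set directly against WT_OL, the gene called in WT_RL was *Egr2*, which fell by 1.26 on the log2 scale (SE 0.23 and limma adjusted p = 0.0351), with mean CPM at 0.33 of that in WT_OL. Only 0.157% of all genes were called lower here. The mice of WT_RL lay below every mouse of WT_OL for 4 genes, *Egr1*, *Egr2*, *Egr4* and *Nr4a1*, against 5.34% of all genes. *Nr4a1* differed by -0.73 (limma adjusted p = 0.113), *Egr1* by -0.63 (limma adjusted p = 0.115) and *Egr4* by -0.51 (limma adjusted p = 0.1003). The call of *Egr2* was lost, leaving 0 of 8, without WT_OL replicate 1, without WT_OL replicate 2 and without WT_RL replicate 2, while all 4 genes were called without WT_OL replicate 3. *Egr3* at 114, 98.4 and 104 CPM, *Nr4a2* at 65.2, 48.5 and 36.7 CPM, *Nr4a3* at 105, 67.7 and 89.1 CPM and *Npas4* at 8.04, 5.99 and 9.11 CPM overlapped with WT_OL.

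In *Ccny* KO mice 3 genes were higher in KO_RL than in KO_Basal: *Egr1*, *Egr3* and *Egr4*, against 11.6% of all genes. All mice of KO_RL lay above those of KO_Basal for 4 genes, the same 3 and *Nr4a3*, against 22.7% of all genes. *Egr1* stood at 182, 166 and 206 CPM in KO_RL, so that the log2 change was 0.77 (SE 0.16 and limma adjusted p = 0.00306). *Egr3* stood at 112, 119 and 145 CPM, its highest group, with a log2 change of 0.44 (SE 0.10 and limma adjusted p = 0.00475). *Egr4* stood at 27.7, 24.3 and 30.1 CPM, so that the log2 change was 1.02 (SE 0.12 and limma adjusted p = 6.1e-05). These were the 3 EGR factors of higher level, and each was still called without KO_Basal replicate 1, at 0.53, 0.37 and 0.91. *Nr4a3* stood at 90.2, 116 and 101.3 CPM, clear of KO_Basal, but its log2 change of 0.45 did not pass the test (limma adjusted p = 0.113). *Egr2* (3.82, 2.63 and 4.50 CPM), *Nr4a1* (51.5, 56.2 and 62.9 CPM), *Nr4a2* (47.0, 72.5 and 50.1 CPM) and *Npas4* (9.74, 8.46 and 8.305 CPM) all overlapped with KO_Basal. Without KO_Basal replicate 1 the log2 change was 0.35 for *Nr4a3*, 0.09 for *Egr2*, -0.19 for *Nr4a1*, 0.10 for *Nr4a2* and -0.45 for *Npas4*.

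Between KO_RL and KO_OL limma called 0 of the 8 genes, and 0.0196% of all genes in either direction. At an unadjusted p under 0.05 there were 2, *Egr2* and *Egr4*, beside 4.81% of all genes, and limma voom on the recovered reads called 0. Only *Egr2* had all mice of KO_RL below those of KO_OL, against 6.33% of all genes, with a log2 change of -0.58 (95% interval -1.06 to -0.09, limma adjusted p = 0.938). For *Egr1* the log2 change was -0.13 (95% interval -0.47 to 0.21), and for *Egr4* it was -0.27 (95% interval -0.53 to -0.01).

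Without training, *Ccny* KO and WT mice were compared to ask whether the knockout alone shifts these genes. No gene of the 8 passed the test with limma (0 of 8, and 0.0196% of all genes in either direction). At an unadjusted p under 0.05 there were 4 of the 8, beside 4% of all genes (613), and limma voom called 0. All KO_Basal mice lay above all WT_Basal mice for *Egr2* and *Npas4*, against 7.05% of all genes. *Npas4* had a log2 change of 1.12 (95% interval 0.52 to 1.71, unadjusted p = 0.00104 and limma adjusted p = 0.994), with mean CPM 2.46 times that of WT_Basal. *Egr2* had a log2 change of 0.76 (95% interval 0.27 to 1.25, unadjusted p = 0.00431 and limma adjusted p = 0.994), with mean CPM 2.30 times that of WT_Basal. The intervals thus exclude 0 taken gene by gene, but neither gene stands out once all genes are considered.

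For the remaining genes the mice overlapped. *Egr1* had a log2 change of 0.37 (95% interval 0.03 to 0.71) and *Nr4a1* of 0.40 (95% interval 0.01 to 0.79), both with an adjusted p of 0.994 from limma. Both values rested on single mice: without KO_Basal replicate 1 they were 0.61 and 0.62, and without KO_Basal replicate 3 they were 0.16 and 0.25. KO_Basal replicate 1 lay just below the WT_Basal range for *Nr4a1*, at 41.2 CPM against 41.5 to 42.6 CPM, and replicates 2 and 3 lay above it. *Egr4* had a log2 change of 0.24, *Nr4a2* of 0.02, *Egr3* of -0.07 and *Nr4a3* of -0.16. Without KO_Basal replicate 1 the log2 change of *Npas4* was 1.31 (limma adjusted p = 0.892) and that of *Egr2* 0.95 (limma adjusted p = 0.9998), while *Egr4* was at 0.34, *Nr4a2* at 0.19, *Egr3* at 0.0024 and *Nr4a3* at -0.07. The sum of the choroid plexus markers was lower in all KO_Basal mice than in all WT_Basal mice, and its part in these values was not tested.

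After original learning 0 of 8 genes were called by limma between the genotypes, and 0.0652% of all genes in either direction. An unadjusted p under 0.05 was reached by 2 genes, *Egr3* and *Egr4*, and by 2764 of all genes, so that 2 of 8 is near the share over all genes, and limma voom called 0. Only *Egr1* had all KO_OL mice above all WT_OL mice, against 7.61% of all genes, with a log2 change of 0.16 (95% interval -0.18 to 0.50). *Egr3* differed by 0.23 (limma adjusted p = 0.249) and *Egr4* by 0.27 (limma adjusted p = 0.264). *Nr4a3* differed by 0.41 (95% interval -0.01 to 0.83), *Npas4* by -0.43 (95% interval -1.03 to 0.16), *Nr4a1* by -0.36 (95% interval -0.75 to 0.03), *Egr2* by -0.28 and *Nr4a2* by -0.05, so that sizeable differences in either direction are within reach of these intervals. Without WT_OL replicate 3, *Egr3* was called, so that the count went from 0 to 1.

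After reversal learning all 8 log2 changes of KO_RL against WT_RL were above 0, with a median of 0.24 against 0.00 over all genes. No gene was called by limma (0 of 8, and 0% of all genes), 3 had an unadjusted p under 0.05 (*Egr1*, *Egr3* and *Egr4*, beside 4.93% of all genes), and limma voom called 0. The mice of KO_RL lay above those of WT_RL for *Egr1* and *Egr4*, against 3.99% of all genes. *Egr1* differed by 0.66 (95% interval 0.32 to 1.002, unadjusted p = 0.000777 and limma adjusted p = 0.555) and *Egr4* by 0.50 (95% interval 0.24 to 0.76, unadjusted p = 0.000833 and limma adjusted p = 0.555). *Nr4a1* differed by 0.02 and *Npas4* by 0.19.

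**Figure D3:**
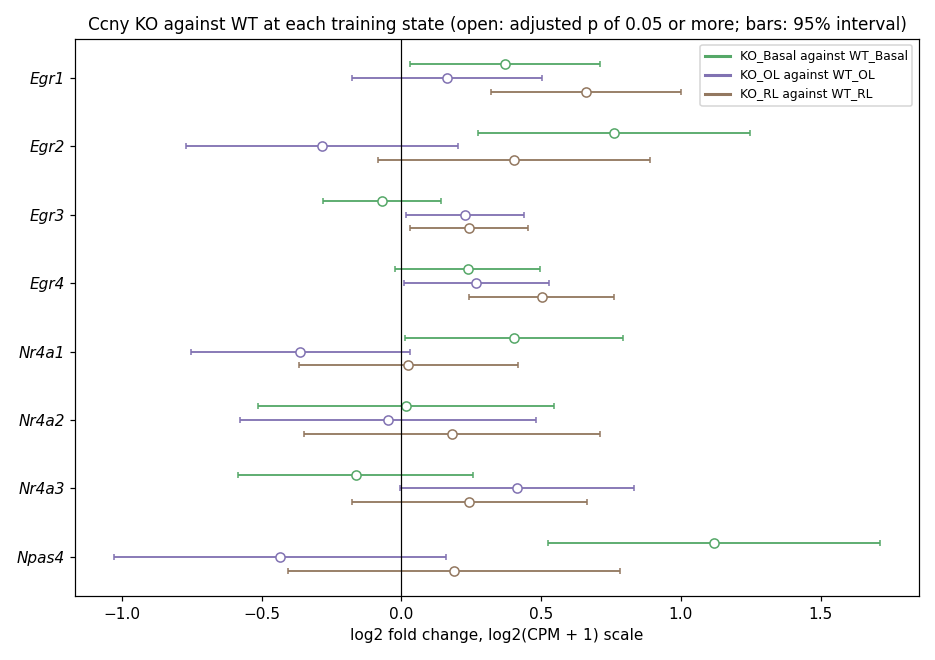
Log2 fold change of KO against WT for each gene without training, after original learning and after reversal learning, on the log2(CPM + 1) scale with 95% intervals from limma. All points are open, as no adjusted p was under 0.05, and 9 intervals lie to the right of 0: *Npas4*, *Egr2*, *Egr1* and *Nr4a1* without training, *Egr3* and *Egr4* after original learning, and *Egr1*, *Egr3* and *Egr4* after reversal learning.

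Whether training changed these genes differently in the 2 genotypes was tested as the change in KO minus the change in WT. For original learning against no training, 0 of 8 genes passed with limma (0% of all genes), 3 had an unadjusted p under 0.05 beside 12.4% of all genes, and limma voom called 0. *Npas4* had the largest difference, -1.55 on the log2 scale (95% interval -2.39 to -0.71, unadjusted p = 0.00122 and limma adjusted p = 0.388): its mean went from 4.52 to 10.5 CPM in WT and from 11.1 to 7.72 CPM in KO. *Egr2* differed by -1.05 (95% interval -1.73 to -0.36, limma adjusted p = 0.388), and *Nr4a1* by -0.77 (95% interval -1.32 to -0.21, limma adjusted p = 0.388). In each of these 3 genes the mean of KO_Basal was above that of WT_Basal and the mean of KO_OL below that of WT_OL, but neither difference passed the test, and the mice of *Nr4a1* overlapped in both.

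*Nr4a3* and *Egr3*, which rose in KO_OL and did not pass the test in WT_OL, differed by 0.58 (limma adjusted p = 0.402) and 0.30 (limma adjusted p = 0.400), so a difference between the genotypes was not shown for them. *Egr4* differed by 0.03, with a 95% interval from -0.34 to 0.40 against a rise of over 1 in both genotypes, and *Egr1* by -0.21 (95% interval -0.69 to 0.28). A single mouse mattered here too. Without WT_OL replicate 3, *Npas4* (-1.78, limma adjusted p = 0.0352) and *Egr2* (-1.26, limma adjusted p = 0.0386) were called, so that the count went from 0 to 2. Without KO_Basal replicate 1 their values were -1.74 and -1.23, with *Nr4a1* at -0.98, *Egr1* at -0.44, *Nr4a2* at -0.24, *Egr4* at -0.07, *Egr3* at 0.23 and *Nr4a3* at 0.48, and the count was 0. For reversal against original learning 0 of 8 genes and 0% of all genes passed with limma, 1 gene (*Egr1*, 0.50) had an unadjusted p under 0.05 beside 7.98% of all genes, and limma voom called 0. For reversal learning against no training the counts were 0 of 8 and 0%, with 2 genes under an unadjusted p of 0.05 (*Npas4*, -0.93, and *Egr3*, 0.31), beside 4.99% of all genes, and 0 by limma voom. Without KO_Basal replicate 1 these 2 values were -1.12 and 0.24, the other 6 lay between -0.59 (*Nr4a1*) and 0.31 (*Nr4a3*), and the count was 0.

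Across the 18 libraries the 8 genes did not move as a single block. The Pearson correlation of a gene with the mean of the other 7, each standardised over the libraries, was highest for *Egr1* (0.92) and *Egr4* (0.84), followed by *Nr4a1* (0.76) and *Egr2* (0.75), and lower for *Nr4a3* (0.57), *Nr4a2* (0.56), *Egr3* (0.46) and *Npas4* (0.46). *Egr1* and *Egr4* correlated at 0.94 and *Egr2* and *Nr4a1* at 0.92. *Egr3* and *Nr4a3* correlated at 0.70 and *Nr4a2* and *Nr4a3* at 0.64, whereas *Egr3* and *Npas4* correlated at 0.02. After subtraction of the group means *Egr2* and *Nr4a3* correlated at -0.26, *Nr4a2* and *Nr4a3* at 0.65 and *Nr4a1* and *Npas4* at 0.78. The libraries share a normalization, and the pooled values also carry the differences between groups. WT_OL replicate 2 was the highest of its group for *Egr2*, *Egr4* and *Nr4a1*, whose transcripts have a GC content of 51.4%, 68.2% and 57.0%, and the lowest for *Egr3*, *Nr4a2* and *Nr4a3*, at 51.3%, 47.9% and 48.4%. This library also had the steepest rise of log2 deviations with GC content of the 18 (0.194 per 10 percentage points), and the part of GC content in this split was not tested. WT_RL replicate 2 was the lowest of its group for 7 of the 8 genes.

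**Figure D4:**
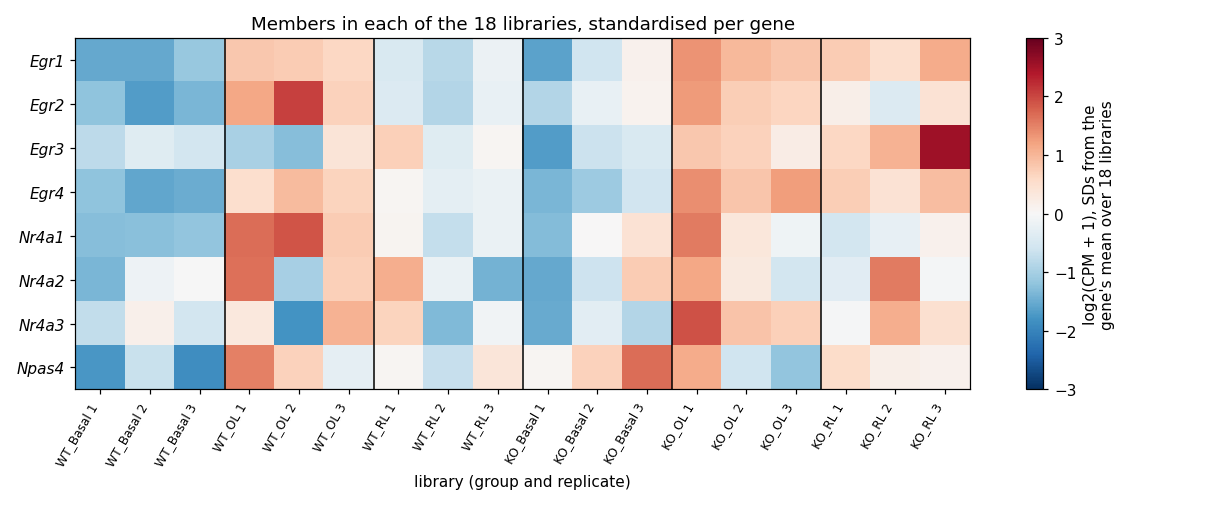
Level of the 8 genes (rows) in the 18 libraries (columns, by group and replicate), as log2(CPM + 1) in SDs from the mean of the gene over all libraries (red higher, blue lower). *Egr1*, *Egr2*, *Egr4* and *Nr4a1* are blue throughout WT_Basal and red throughout WT_OL, while KO_Basal replicate 1 and KO_OL replicate 1 hold the lowest and highest levels of their groups for all 8 genes.

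The 10 other genes whose log2 values over the 18 libraries were most like the mean of the 8 standardised genes, among genes of at least 1 CPM on average, were *Bhlhe40* (r = 0.89), *Midn* (0.87), *Dusp5* (0.87), *Ppp1r13l* (0.86), *Bcl9l* (0.86), *Spry4* (0.86), *Rapgef1* (0.86), *Acap3* (0.85), *Arc* (0.85) and *Ctnnd2* (0.85). *Bhlhe40* encodes a basic helix-loop-helix repressor of the clock, *Dusp5* a phosphatase of ERK in the nucleus, *Spry4* an inhibitor of ERK signalling and *Arc* a synaptic protein that takes part in AMPA receptor endocytosis. *Bhlhe40* stood at 95.7 CPM in WT_Basal and 120 CPM in WT_OL, and at 102 and 132 CPM in KO_Basal and KO_OL.

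The signalling side of the pathway was read from 14 genes. Of these genes of kinases and transcription factors that act upstream, 2 were called higher in WT_OL (*Elk4* and *Crtc1*) and 1 lower (*Mef2a*), beside 3.88% of all genes called higher, with a list median of 0.05 against 0.00 over all genes. *Elk4*, a partner of SRF, rose by 0.67 on the log2 scale (limma adjusted p = 0.00258), from 7.18 ± 0.41 to 11.997 ± 1.12 CPM (SD, n = 3). *Crtc1*, a coactivator of CREB, rose by 0.34 (limma adjusted p = 0.0222), and *Mef2a*, a neuronal MADS-box factor, fell by 0.50 (limma adjusted p = 0.0342). In KO_OL 4 of the 14 were higher, *Elk4* and *Crtc1* again among them, and 2 were lower, beside 11.2% of all genes called higher. Both genes were also called higher in WT_RL and in KO_RL against the untrained mice of their genotype, where 3 and 4 of the 14 were higher and 1 was lower in each, beside 8.28% and 11.6% of all genes called higher. All these shares cover higher calls only, and none is given for the lower calls.

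Partners of the EGR, NR4A and NPAS4 proteins were read from 7 genes of NAB corepressors, RXR receptors and ARNT proteins. In KO_OL *Rxra*, a dimer partner of NR4A receptors, rose by 0.34 (limma adjusted p = 0.00744) and *Nab1*, a corepressor that binds EGR proteins, fell by 0.31 (limma adjusted p = 0.0293). In WT_OL the same genes differed by 0.24 (limma adjusted p = 0.0758) and -0.22 (limma adjusted p = 0.155), so that values in both genotypes had the same sign. *Rxra* was called higher in WT_RL (0.44) and KO_RL (0.46) against untrained mice. *Rxrb* was also higher in WT_RL (0.22, limma adjusted p = 0.0380), and *Nab1* was lower in KO_RL (-0.36, limma adjusted p = 0.0130). Higher calls thus made up 1 of 7 for KO_OL and for KO_RL, near the 11.2% and 11.6% of all genes. They made up 2 of 7 for WT_RL (8.28% of all genes) and 0 of 7 for WT_OL (3.88%). No share is given for the lower calls. List medians ran from 0.06 (WT_RL) to 0.17 (KO_OL).

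Of 14 other transcription factors induced by activity, 9 were higher in WT_OL (3.88% of all genes) and 8 in KO_OL (11.2% of all genes), with none lower. The list medians were 0.61 and 0.42, against 0.00 and -0.01 over all genes. *Fosb*, a partner of JUN proteins, rose by 1.23 in WT_OL (limma adjusted p = 0.000356), from 3.91 ± 0.24 to 10.6 ± 1.53 CPM (SD, n = 3), and by 1.25 in KO_OL (limma adjusted p = 5.8e-05). *Per1*, a clock gene that is also induced by CREB, rose by 0.81 in WT_OL (limma adjusted p = 9.1e-05) and by 0.75 in KO_OL (limma adjusted p = 2.7e-05). *Fos* was called in WT_OL and not in KO_OL, where its log2 change was 0.38 (limma adjusted p = 0.225). Its means went from 6.58 to 29.0 CPM in WT and from 16.1 to 20.8 CPM in KO, and the difference between the changes was -1.59 (unadjusted p = 9.4e-05, limma adjusted p = 0.368). In WT_RL 6 and in KO_RL 7 of the 14 were higher than in untrained mice (8.28% and 11.6% of all genes), and *Per1* was the 1 called lower in WT_RL than in WT_OL.

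Of 16 effectors and targets of this response, 6 were higher in WT_OL, and 5 were higher and 1 lower in KO_OL, beside 3.88% and 11.2% of all genes called higher. Shares in this paragraph cover the higher calls only. The list medians were 0.28 and 0.20, against 0.00 and -0.01 over all genes. *Dusp5* rose by 0.91 in WT_OL (limma adjusted p = 0.00370) and by 1.003 in KO_OL (limma adjusted p = 0.000633). *Sik1*, a kinase that restrains CRTC coactivators, rose by 0.93 in WT_OL (limma adjusted p = 0.00211) and by 0.64 in KO_OL (limma adjusted p = 0.00774). *Arc* rose in WT_OL by 1.69 (limma adjusted p = 0.00132), and in KO_OL its log2 change was 0.67 (limma adjusted p = 0.0729). In WT_RL 4 of the 16 were higher (8.28% of all genes), and in KO_RL 3 were higher (11.6% of all genes) and 1 lower.

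Glucocorticoid-induced genes were read as a mark of the hormone response. Of 8, 1 was higher in WT_OL and 5 in KO_OL, and 6 were higher in WT_RL and 8 in KO_RL against untrained mice, with list medians of 0.27, 0.48, 0.75 and 0.89. The shares of all genes called higher in these 4 comparisons were 3.88%, 11.2%, 8.28% and 11.6%, and their medians lay within 0.01 of 0. Of the same 8 genes, 2 (*Fkbp5* and *Plin4*) were called higher in WT_RL than in WT_OL. No share of all genes called higher by limma is given for this comparison. Calls were rare in it: limma called 0.157% of all genes lower, and limma voom called 35 genes. An unadjusted p under 0.05 from limma was reached by 16.4% of all genes, a share that is not like for like with these adjusted calls. The part of the hormone response in the levels of the Egr and Nr4a genes was not tested.

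The response of a library to GC content also differed between trained and untrained mice. The slope of log2 deviations on GC content, per 10 percentage points, lay between -0.17 and -0.11 in the 6 untrained libraries and between -0.01 and 0.19 in the 12 trained ones. The sources used here do not say whether trained and untrained libraries were prepared or sequenced together. A technical difference between them would enter every comparison of trained with untrained mice and could not be told apart from training. Of the 8 genes, 6 had a GC content above the median of all genes (49.8%), with *Egr4* at 68.2% and *Nr4a2* at 47.9%. After a correction for GC content *Egr1*, *Egr2*, *Egr4* and *Nr4a1* were still called in WT_OL, and *Npas4* was not (0.91, limma adjusted p = 0.105). In KO_OL *Egr3* lost its call with this correction, while *Egr1*, *Egr2*, *Egr4* and *Nr4a3* kept theirs. The calls of *Egr4* in WT_RL and of *Egr1*, *Egr3* and *Egr4* in KO_RL against untrained mice were kept too.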

How the data were processed

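The hippocampus of 18 mice gave 1 poly-A library each, sequenced as paired 100-bp reads, and libraries were grouped by the genotype, training and replicate number in their labels. The authors used STAR 2.5.1 for alignment to mm10 and for counting per gene, normalized by TMM in edgeR 3.12.1 and deposited log2 values for 15329 genes. The methods describe CPM floored at 1, but the deposited log2 values are log2(CPM + 1). Taking 2 to the power of a value and subtracting 1 gives CPM. Divided by the CPM of 1 read in its library, this was a whole number of reads, within 0.1 read. That held in 100% of the values checked, which were those of lower read counts. Values were fitted with limma 3.58.1 in R 4.3.3 (1 mean per group over 18 libraries, eBayes with a variance trend, 12 residual degrees of freedom), in 9 comparisons of 2 groups and 3 genotype differences, two-sided, with Benjamini-Hochberg adjustment over all genes, and called at an adjusted p under 0.05. All genes were tested. Nothing says whether the mice of a group came from separate litters or cages, so p-values measure the spread between these samples. An exact permutation test of 3 against 3 mice cannot go below 0.1 and was not used. The fit was tested on simulated data. Alternatives were the floored scale, a pseudocount of 0.5, a mean of at least 1 CPM, median-ratio scaling, voom on recovered reads, a replicate block, GC correction, no variance trend, only the compared libraries, and leaving out each mouse. The genes named are the 8 members, *Ccny*, at most 4 called genes per pathway list and the 10 most similar genes. Names beyond this rule (*Plin4*, *Fkbp5*) and the values without single KO_Basal mice for every gene were added after their values were seen. The members and lists were chosen with earlier results of these data known. Python 3.11.15, pandas 2.3.3 and matplotlib 3.10.9 were used for the rest.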

Additional observations from a re-analysis of the deposited data

How the results depend on the processing

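The main count of members called was within 1.5 times under every alternative for WT_OL against WT_Basal (4 to 5 of 8), KO_RL against KO_Basal (3 to 4), KO_RL against KO_OL, KO_Basal against WT_Basal and KO_RL against WT_RL (0 throughout). WT_RL against WT_OL (1 called) gave 0 with values under 1 CPM raised to 1 CPM, 0 with the replicate block and 0 with only the compared libraries, and from 0 to 4 when single mice were left out. WT_RL against WT_Basal (1 called) gave 2 with the raised low values, 2 with a pseudocount of 0.5, 2 with the replicate block (*Egr1* and *Egr4*) and 4 with only the compared libraries. KO_OL against KO_Basal (5 called) gave 2 to 5 when single mice were left out, KO_OL against WT_OL 0 to 1, and the genotype difference in original learning 0 to 2. The block left the counts of the other comparisons within 1.5 times, and the replicate numbers share only a number: same-numbered libraries correlated at -0.64 to 0.55 in their deviations from the group means (45 pairs, median -0.02), and 7 of 18 libraries were closest to their own number.

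Called in all 15 alternatives were *Egr1* in WT_OL, KO_OL and KO_RL, *Egr2* and *Nr4a1* in WT_OL, *Egr3* in KO_RL, and *Egr4* in all 4 comparisons with untrained mice. *Egr3* in KO_OL kept its call in 5 of 15, and *Npas4* in WT_OL also lost its call with only the compared libraries (adjusted p = 0.0908 from limma). Values near 0 changed sign without 1 mouse: *Egr3* in WT_OL to 0.0088, 0.024 and 0.052 (without WT_Basal replicate 2, WT_OL replicate 1 and WT_OL replicate 2), *Nr4a3* in WT_OL to -0.11 (without WT_OL replicate 3, with a range up to 0.34) and the genotype difference of *Egr1* in original learning to 0.0063 (without KO_Basal replicate 3, with a range down to -0.44). Depth limits *Egr2* most, with as few as 29 reads in a library. With 3 mice per group, a difference of moderate size can be missed, and the cause of the calls lost was not tested.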
